A study of Mus musculus with 4 samples.

Results

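Astrocytes are the glial cells that take up glutamate from synapses and convert it to glutamine, share ions and metabolites through gap junctions and enclose the blood vessels of the brain. They arise from neural progenitor cells (NPCs) late in development, under cytokine, BMP and Notch signals, and several of the genes that mark them are already transcribed in radial glia and cultured progenitors. The values of 10 genes that are widely used as astrocyte markers are described here, out of 21862 genes with a single row in each of 4 RNA sequencing libraries. The genes were chosen by name, with earlier results of these data known. They encode the intermediate filament protein Gfap, the calcium-binding protein S100b, the folate enzyme Aldh1l1, the glutamate transporters Slc1a3 (GLAST) and Slc1a2 (GLT-1), the water channel Aqp4, the glycolytic enzyme Aldoc, glutamine synthetase (Glul), the gap junction protein connexin 43 (Gja1) and the transcription factor Nfia, and all 10 were listed in the files.

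The libraries came from N31 NPCs, a mouse line made by differentiating induced pluripotent stem cells that had themselves been made from an NPC line, and carrying doxycycline-inducible reprogramming genes and a CAG-driven rtTA transgene. The control_0.5kPa and control_12kPa libraries were from N31 NPCs, and the shSrf_0.5kPa and shSrf_12kPa libraries were from N31 NPCs expressing shSrf#1, a short hairpin RNA against Srf introduced with a retrovirus, which are called knockdown cells here, while N31 NPCs without it are called control cells. Srf is the serum response factor, a transcription factor that acts downstream of actin and of matrix stiffness. All cells grew on collagen-coated matrices of 0.5 or 12 kPa in medium that lacked EGF and bFGF, and the sources used here do not state whether the control cells carried a control hairpin. Each condition had 1 library from 1 cell line, so no difference has a replicate check, no p-value was computed, and an effect of a condition cannot be told apart from an effect of its library.

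Values are FPKM, which scales reads to transcript length and library size, as the authors deposited them. The depth, estimated from whole-read steps among the lowest values, was 24100000 to 62300000 reads, and 3 reads on a transcript of 2000 nucleotides equal an FPKM of 0.0268 to 0.0691. Intervals cover the counting of reads alone. Srf had an FPKM of 34.4 and 35.6 in control cells and of 16.2 and 17.4 in knockdown cells, which is a log2 ratio to control of -1.09 on the softer and -1.03 on the stiffer matrix. Of 14 radial glia and NPC markers, Nes, Tnc, Notch1, Sox2 and Pax6 had an FPKM above 2 in all 4 libraries, whereas the defining markers Sox1, Hes5 and Nr2e1 were listed at 0 in every library. Of 12 fibroblast and mesenchymal markers, 11 or 12 exceeded an FPKM of 2 in each library, with a median of 94.5 to 127. In bulk RNA, fewer cells of a type and less RNA per cell cannot be told apart.

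The upstream sequences of Gja1, Slc1a3 and Glul are shown because the values below turn on these genes: among the marker genes with an FPKM above 2, Gja1 and Slc1a3 were lower in knockdown cells, and Glul was the most abundant of those that were higher. Each is the 250 bases before the RefSeq transcription start on GRCm38.p6 (mm10), 5′ to 3′ on the strand of the gene, at chr10:56377050-56377299 on the plus strand for Gja1, chr15:8710808-8711057 on the minus strand for Slc1a3 and chr1:153899679-153899928 on the plus strand for Glul. Capitals mark matches on either strand to an AP-1 motif (TGANTCA) in Gja1, to a STAT motif (TTCNNNGAA) in Slc1a3 and to the shorter nuclear factor I motif (TTGGC, or GCCAA when read on the other strand) in Glul.
Gja1: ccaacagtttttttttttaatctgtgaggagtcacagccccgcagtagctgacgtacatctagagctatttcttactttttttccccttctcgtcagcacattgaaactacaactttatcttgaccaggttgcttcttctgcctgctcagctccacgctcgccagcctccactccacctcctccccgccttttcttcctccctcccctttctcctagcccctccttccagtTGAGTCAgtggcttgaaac
Slc1a3: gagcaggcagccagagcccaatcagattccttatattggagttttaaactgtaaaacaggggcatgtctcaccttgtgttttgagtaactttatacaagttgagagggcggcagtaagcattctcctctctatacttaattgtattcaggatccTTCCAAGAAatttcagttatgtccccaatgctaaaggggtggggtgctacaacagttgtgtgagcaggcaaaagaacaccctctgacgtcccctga
Glul: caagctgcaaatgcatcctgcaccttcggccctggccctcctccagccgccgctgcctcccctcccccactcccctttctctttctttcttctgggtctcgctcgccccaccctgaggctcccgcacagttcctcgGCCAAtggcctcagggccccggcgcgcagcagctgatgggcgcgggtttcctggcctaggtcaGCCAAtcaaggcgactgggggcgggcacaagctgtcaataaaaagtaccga

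The AP-1 match of Gja1 covered positions -19 to -13 from the start, the STAT match of Slc1a3 covered -96 to -88, and the matches of Glul covered -114 to -110 and -51 to -47, both overlapping a CCAAT box. Of 32851 upstream windows of the same length, 6.75% held the AP-1 motif, 7.02% the STAT motif, 41.5% TTGGC and 33.8% CCAAT. A window was at hand for 9 of the 10 marker genes (10 windows, since Aldoc had a pair of starts). A STAT match was also found upstream of Aldoc, and TTGGC upstream of Slc1a2, S100b and Aldoc. No window of a marker gene held an exact CArG box (CCWWWWWWGG, where W is A or T), the motif that Srf binds. Of all windows, 1.47% held it. The nuclear factor I palindrome was likewise absent from the marker genes, and 0.0365% of all windows held it. Only exact matches were searched, so sites that differ from a motif by a base were not counted. Such matches describe letters in a window and say nothing of binding in these cells.

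The 10 genes fell into separate ranges of expression. Gja1, Glul, Aldoc, Slc1a3, Aldh1l1 and Nfia exceeded an FPKM of 2 in each of the 4 libraries, the minimum taken from the study's methods, which 10489 genes passed. Gfap, S100b, Aqp4 and Slc1a2 stayed below 0.5 in all 4. Gja1, which forms the main gap junction channel of astrocytes but also of fibroblasts and many other cells, made up 61.0 to 81.2% of the summed FPKM of the 10 genes and stood above 97.4 to 98.9% of all genes. Below it, the order changed with the knockdown. In the control library at 0.5 kPa the order was Glul (31.4), Slc1a3 (27.7), Aldoc (24.3), Aldh1l1 (5.68) and Nfia (2.43), with no overlap between the 95% counting intervals of neighbours. All such intervals assume the longest transcript of each gene. On it, Glul and Slc1a3 had an estimated 2366 and 3191 reads there, but on the shortest 156 and 425, which would widen their intervals. At 12 kPa Slc1a3 (36.7) and Glul (35.2) had overlapping intervals. In knockdown cells Glul came next to Gja1 and Aldoc followed, and Slc1a3 was close to Nfia at 0.5 kPa (9.99 and 9.42, overlapping intervals), as Nfia was to Aldh1l1 at 12 kPa (9.28 and 8.96, overlapping intervals).

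**Figure D1:**
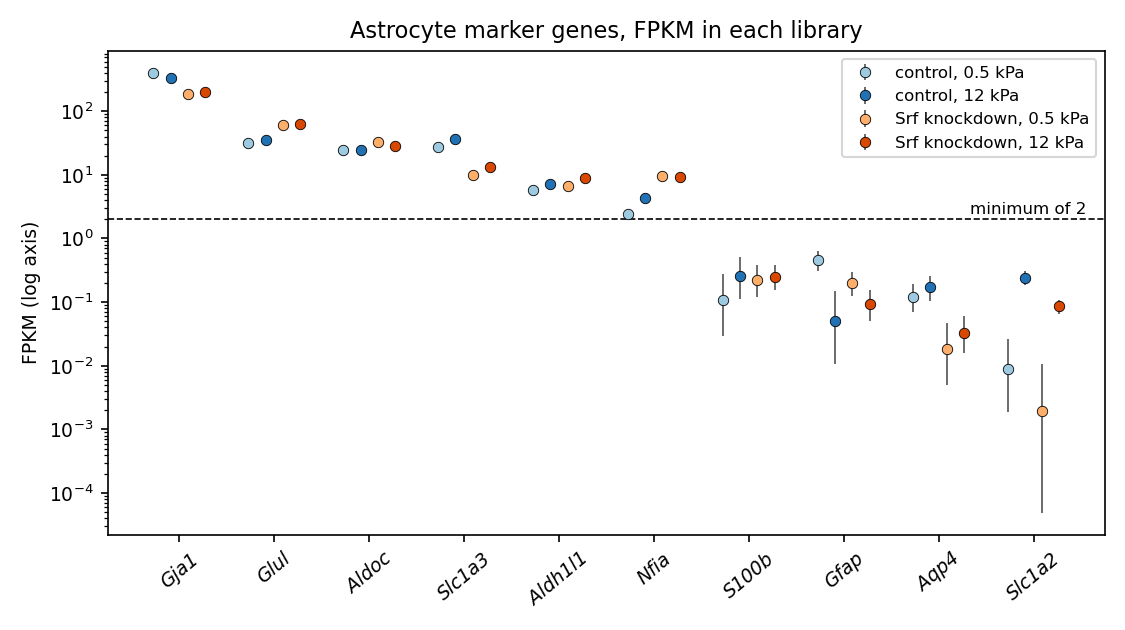
FPKM of each marker gene (log axis) in the 4 libraries, with 95% counting intervals as bars, which for the abundant genes are smaller than the points. The 6 genes on the left lie above the minimum of 2 (dashed line) in every library, and the 4 genes on the right lie below 0.5.

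Stiffness was compared first within control cells. Of the 6 marker genes above the minimum, 4 were higher at 12 kPa than at 0.5 kPa by more than 1.1-fold, the threshold of the study's methods, and 1 was lower. Among all genes above the minimum, 17.9% were higher and 16.9% were lower. The median log2 ratio was 0.24 over the 6 genes and 0.00305 over all genes. No marker gene passed 2-fold.

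Nfia is a nuclear factor I transcription factor that switches progenitors toward glia. It had an FPKM of 2.43 in control cells at 0.5 kPa, 4.35 in control cells at 12 kPa, 9.42 in knockdown cells at 0.5 kPa and 9.28 in knockdown cells at 12 kPa, so both control libraries were below both knockdown libraries. Between 12 and 0.5 kPa its log2 ratio came to 0.84 in control cells (95% counting interval 0.70 to 0.99), above 99.8% of all genes. In knockdown cells it was -0.02 (-0.08 to 0.04). The gene lies on chromosome 4 of GRCm38 from 97578066 to 98118876 and has 11 annotated transcripts, so the reads behind its lowest value could number from 43.9 to 659, depending on the transcript assumed, and its intervals use the longest transcript.

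Slc1a3 is the glutamate transporter of radial glia and astrocytes and lies on chromosome 15 from 8634124 to 8710807. Its FPKM was 27.7 and 36.7 in control cells at 0.5 and 12 kPa, and 9.99 and 13.2 in knockdown cells. The higher value belonged to the 12 kPa matrix in both kinds of cells, with a log2 ratio of 0.41 (0.34 to 0.48) in control cells and 0.40 (0.32 to 0.48) in knockdown cells. Aldh1l1, a folate enzyme on chromosome 6 (90550768 to 90599171) that is used as a broad astrocyte marker, showed the same order. It had an FPKM of 5.68 and 7.09 in control cells and 6.77 and 8.96 in knockdown cells. Between 12 and 0.5 kPa its log2 ratio came to 0.32 (0.16 to 0.48) in control and 0.40 (0.30 to 0.51) in knockdown cells. Both ratios of both genes lay above the 95th percentile of all genes, which was 0.316 in control cells and 0.289 in knockdown cells. For Aldh1l1 in control cells the margin was small (0.321), and its counting interval reached below that percentile.

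In control cells the other 3 genes above the minimum differed less with stiffness. Gja1, on chromosome 10 from 56377300 to 56390419, showed FPKM values of 397 and 334 in control cells at 0.5 and 12 kPa and was the only one of the 6 to be lower at 12 kPa there, with a log2 ratio of -0.25 (-0.28 to -0.23). In knockdown cells it had 187 and 199, a log2 ratio of 0.09, within 1.1-fold. Glul, which makes glutamine from glutamate and ammonia and lies on chromosome 1 from 153899929 to 153909723, had 31.4 and 35.2 in control cells and 60.1 and 63.8 in knockdown cells. Its log2 ratios were 0.17 (0.08 to 0.25) and 0.09 (0.04 to 0.13), of which the first passed 1.1-fold. Aldoc, the brain aldolase, lies on chromosome 11 from 78323073 to 78327781. It had an FPKM of 24.3 and 24.7 in control cells (log2 ratio 0.02) and 32.8 and 28.0 in knockdown cells, a log2 ratio of -0.23 (-0.29 to -0.17). The ratio of Aldoc in knockdown cells lay below the 5th percentile of all genes (-0.218), and its counting interval reached above that percentile.

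In knockdown cells, then, 2 of the 6 genes were higher at 12 kPa by more than 1.1-fold (Slc1a3 and Aldh1l1) and 1 was lower (Aldoc), against 17.6% and 13% of all genes. Their median log2 ratio was 0.09, and that of all genes was 0.0064. The ratios in control and knockdown cells share no library. The 2 ratios of Nfia differed by 0.86 on the log2 scale, the widest gap among the 6 genes, and that gap has no replicate error to set it against.

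**Figure D2:**
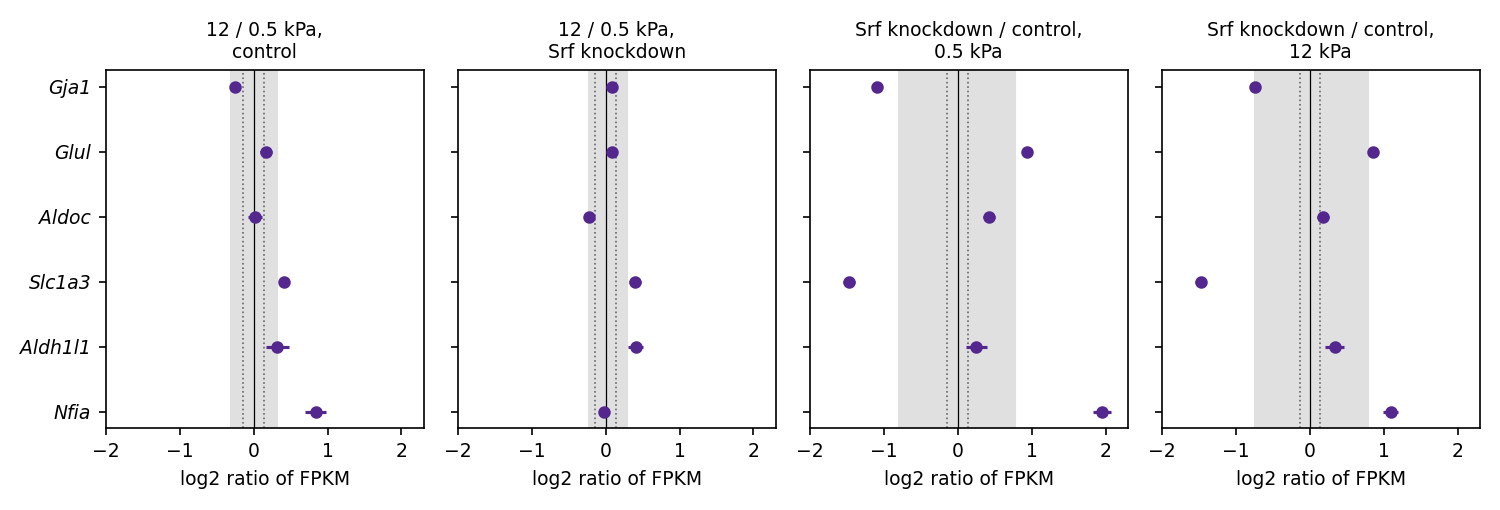
Log2 ratios of FPKM for the 6 marker genes above the minimum, for 12 to 0.5 kPa in control and knockdown cells and for knockdown to control cells at each stiffness, with 95% counting intervals as bars. Grey bands span the 5th to 95th percentile of all 10489 genes and dotted lines mark 1.1-fold. Nfia leaves the band in 3 of the 4 panels, and Slc1a3 in all 4, below it in both knockdown ratios.

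The ratios of knockdown to control cells spread more widely over all genes than those of stiffness, with a 5th and 95th percentile of -0.79 and 0.77 at 0.5 kPa and -0.74 and 0.79 at 12 kPa. At 0.5 kPa, 4 of the 6 genes were higher in knockdown cells by more than 1.1-fold (Nfia, Glul, Aldoc and Aldh1l1) and 2 were lower (Slc1a3 and Gja1), against 37.4% and 35.7% of all genes. At 12 kPa the same 4 were higher and the same 2 lower, against 37.6% and 35.9%. The medians were 0.34 and 0.26, with 0.0106 and 0.0098 over all genes. The ratios at 0.5 and 12 kPa share no library, but each shares its libraries with the stiffness ratios above. By more than 2-fold at both stiffnesses, 1 marker gene was lower (Slc1a3) and 1 was higher (Nfia), where 1.71% and 1.74% of all genes were.

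The 2 lower genes carry glutamate and connect cells. Slc1a3 had a log2 ratio of -1.47 (-1.55 to -1.39) at 0.5 kPa and -1.48 (-1.55 to -1.41) at 12 kPa, so that its level was 2.77-fold and 2.78-fold lower. For Gja1 the log2 ratio was -0.74 (-0.77 to -0.72) at 12 kPa, and at 0.5 kPa its level was 2.12-fold lower. With ratios centred on genes of like transcript GC content, the ratio of Gja1 at 12 kPa was -0.55, outside that counting interval. Gja1 lay above the median FPKM of the 10489 genes (21.9 to 22.1) in every library, and Slc1a3 lay above it in both control libraries and below it in both knockdown libraries.

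Of the 4 higher genes, Nfia and Glul differed most. Nfia had a log2 ratio of 1.96 (1.84 to 2.08) at 0.5 kPa and 1.09 (1.00 to 1.19) at 12 kPa. For Glul it was 0.94 (0.87 to 1.01) and 0.86 (0.79 to 0.92), above the 95th percentile of all genes at each stiffness (0.77 and 0.79). Glutamine synthetase and its glutamate carrier Slc1a3 thus had ratios of opposite sign. Aldoc had 0.43 (0.35 to 0.51) and 0.18 (0.10 to 0.26), and Aldh1l1 had 0.25 (0.12 to 0.39) and 0.34 (0.21 to 0.46), all within the 5th to 95th percentile. The ratio of Aldoc at 12 kPa was 0.10, within 1.1-fold, once ratios were centred on genes of like transcript GC content. Centred in this way, Aldh1l1 had 0.143 at 0.5 kPa, just past 1.1-fold, and 0.209 at 12 kPa.

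The 4 genes below the minimum rest on few reads. Gfap, the filament protein of mature and reactive astrocytes on chromosome 11 (102887336 to 102897200), had an FPKM of 0.457 in control cells at 0.5 kPa, 0.0511 in control cells at 12 kPa, 0.197 in knockdown cells at 0.5 kPa and 0.0918 in knockdown cells at 12 kPa. These values stand for an estimated 32.5, 3.02, 21.7 and 14 reads. Both 0.5 kPa libraries thus lay above both 12 kPa libraries, with a log2 ratio of 12 to 0.5 kPa of -3.16 (-5.54 to -1.52) in control and -1.10 (-2.20 to -0.09) in knockdown cells. S100b, on chromosome 10 from 76253836 to 76261319, has a single transcript and an estimated 4, 8, 13 and 20 reads in the same order. Its FPKM was 0.107, 0.258, 0.225 and 0.250, and the counting interval of each of its 4 ratios included 0.

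Aqp4, the water channel of astrocyte endfeet, had an FPKM of 0.120 and 0.170 in control cells at 0.5 and 12 kPa and of 0.0182 and 0.0329 in knockdown cells, on an estimated 17.1, 20.2, 4.03 and 10.1 reads. Both knockdown libraries were below both control libraries, with a log2 ratio of -2.72 (-4.75 to -1.10) at 0.5 kPa and -2.37 (-3.63 to -1.21) at 12 kPa. These reads and intervals assume the longest of 3 transcripts, and on the shortest the values stand for 0.533 to 2.67 reads. Slc1a2, the main glutamate transporter of mature astrocytes, on chromosome 2 from 102658239 to 102790784, had 0.00904, 0.240, 0.00195 and 0.0854. The higher values were those of the 12 kPa libraries, but 8 transcripts of 510 to 11595 nucleotides are annotated. On the longest, the values stand for 3, 65.8, 1 and 60.6 reads, and on the shortest for no more than 1.79 reads in any library, so no ratio is read from them.

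The neighbours of each marker gene in its own family or pathway were counted next. In these counts and those of the later lists, lower and higher mean by more than 1.1-fold unless 2-fold is stated. The counts cover genes above the minimum. Of all such genes, 35.7% were lower and 37.4% higher in knockdown cells at 0.5 kPa, and 35.9% and 37.6% at 12 kPa. Whether any list departs from these shares was not tested. For glutamate handling, 14 of 21 other carriers and enzymes were above the minimum, and in knockdown cells 9 were lower and 3 higher at 0.5 kPa, and 7 lower and 2 higher at 12 kPa. Their median log2 ratio was -0.23 and -0.17. Only Slc7a11, the cystine-glutamate exchanger, passed 2-fold at both stiffnesses, with an FPKM of 15.2 and 11 in control cells and 4.59 and 4.11 in knockdown cells (log2 ratios -1.73 and -1.43). Its partner chain Slc3a2 went from 234 and 233 to 184 and 172, and glutamate dehydrogenase (Glud1) from 157 and 143 to 85.3 and 84.6. Among the other glutamate transporters, Slc1a1 reached an FPKM of 0.642 at most, and Slc1a6 and Slc1a7 stayed below it.

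Gja1 had a higher FPKM than any other connexin or pannexin listed, in every library. Of 22 other connexins and pannexins, a list that also held the connexin-binding scaffold Tjp1, 14 stayed under 0.5 in all libraries and 4 passed the minimum, 2 of them lower and 1 higher at 0.5 kPa and 2 lower and 2 higher at 12 kPa in knockdown cells. Gjc1 (connexin 45) had an FPKM of 48.3 and 52.5 in control cells and 56.9 and 59.5 in knockdown cells, and Tjp1 had 28.4, 28.3, 23.7 and 22.8 in the same order. The astrocyte connexin 30 (Gjb6) was listed at 0 in all 4 libraries.

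Around Aqp4, 19 other aquaporins and members of the dystrophin complex that holds Aqp4 at the endfoot were listed, of which 8 passed the minimum. In knockdown cells 5 were lower and 3 higher at 0.5 kPa, and 3 were lower and 3 higher at 12 kPa. Aqp1 was lower by more than 2-fold at both, with an FPKM of 28.9 and 22.3 in control cells against 6.61 and 9.54. Dystrophin (Dmd), which was below the minimum in both knockdown libraries, had 3.74 and 5.31 against 1.23 and 1.87. The syntrophin Sntb1 had 0.455 and 0.476 against 4.46 and 4.03, in the opposite direction.

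The families of Gfap, S100b, Aldh1l1 and Aldoc include abundant genes of many cell types. Of 9 other intermediate filament genes, 4 passed the minimum, and 3 of these were lower and 1 higher in knockdown cells at 0.5 kPa, and 2 lower and 1 higher at 12 kPa. Vimentin (Vim), the filament protein of immature astrocytes and of mesenchymal cells, had an FPKM of 1696, 1481, 2380.2 and 2396 in the order control 0.5, control 12, knockdown 0.5 and knockdown 12 kPa, and nestin (Nes) had 51.6, 36.1, 16.4 and 15.5. Of 14 genes listed with S100b (one of them, S100pbp, belongs to another family), 9 passed the minimum, and 5 were higher and 1 lower at 0.5 kPa, and 7 higher and 1 lower at 12 kPa, none past 2-fold at both. S100a6 (6455, 5268, 7593 and 7022) and S100a4 (1177, 830.1, 1249 and 967) had the highest mean FPKM. All 11 folate enzymes passed the minimum, with 6 higher and 4 lower at 0.5 kPa but 3 higher and 6 lower at 12 kPa, among them Tyms (98.9, 112, 116 and 120) and Shmt2 (83.4, 75.6, 95.6 and 92.2). Of 11 aldolases and glycolytic isozymes, 10 passed the minimum, with 2 higher and 4 lower at 0.5 kPa and 4 and 4 at 12 kPa. The phosphofructokinase Pfkp was the one past 2-fold at both, with 45.9 and 41.2 in control cells and 22.3 and 19.6 in knockdown cells, while Pkm (522 to 635) and Eno1 (482 to 515) had the highest mean FPKM over the 4 libraries.

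Nfia has 3 relatives, all above the minimum. Nfix had an FPKM of 21.8 and 26.2 in control cells and 46.6 and 53.8 in knockdown cells, log2 ratios of 1.1 and 1.04, past 2-fold at both stiffnesses as for Nfia. Nfic had 74.1 and 59.2 against 85.4 and 91.1 (0.20 and 0.62), and Nfib had 15.1 and 17.8 against 17.5 and 17.6 (0.21 and -0.01). In absolute level Nfia was the lowest of the 4 nuclear factor I genes in every library.

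The wider list of signals and factors that drive progenitors toward astrocytes (gp130 cytokines, JAK-STAT, BMP-SMAD and transcription factors) held 43 genes, 34 above the minimum. Of these, 12 were higher and 16 lower at 0.5 kPa in knockdown cells, and 12 higher and 14 lower at 12 kPa, with medians of -0.06 and -0.05. Past 2-fold at both were the BMP targets Id1 (81.4, 90.4, 184 and 198) and Id2 (9.79, 11.2, 46.6 and 47.8), together with Nfix, all higher. The cytokine gene Lif (14.7, 9.69, 4.33 and 3.89) was lower by more than 2-fold at both. Sox9, an early glial factor, had 10.9, 13.5, 10.9 and 12.6, with a ratio of knockdown to control within 1.1-fold at each stiffness.

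Among 44 further genes enriched in mature astrocytes, 18 passed the minimum and 20 stayed below 0.5 in all 4 libraries. Gjb6, Mlc1, Slc6a11 and Slco1c1 were listed at 0 throughout. In knockdown cells 6 were higher and 9 lower at 0.5 kPa and 8 higher and 7 lower at 12 kPa, with medians of -0.17 and -0.06. By more than 2-fold at both, 5 were lower and 1 was higher, where 1.71% and 1.74% of all genes were. The lower ones were Plpp3 (34.8, 37.9, 9.74 and 13), a lipid phosphatase, Papss2 (24.3, 26.3, 8.01 and 9.75), which makes the sulfate donor, Slc7a11, the secreted protease Htra1 (252, 225, 82.2 and 95.6) and tissue factor F3 (53.6, 59.4, 25.7 and 21.2). Tril (3.27, 3.12, 8.63 and 8.08), a cofactor of Toll-like receptors, was the higher one. Cbs, an enzyme of cysteine synthesis that passed the minimum in 2 libraries, had 1.52 and 0.519 in control cells and 3.27 and 3.31 in knockdown cells.

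Of 36 genes raised in reactive astrocytes, 26 were above the minimum. With the knockdown 11 were higher and 12 lower at each stiffness. Ptgs2, which makes prostaglandins, was lower by more than 2-fold at both (23.9, 24.4, 4.06 and 4.25). Lcn2 (3.05, 4.64, 13 and 13.7), an iron-siderophore carrier, and the metalloreductase Steap4 (2.27, 2.09, 10.9 and 10.4) were higher. The immunoproteasome subunit Psmb8 had 0.837, 0.337, 2.73 and 4.71, below the minimum in both control libraries. Many of these genes respond to cytokines or stress in other cells too.

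**Figure D3:**
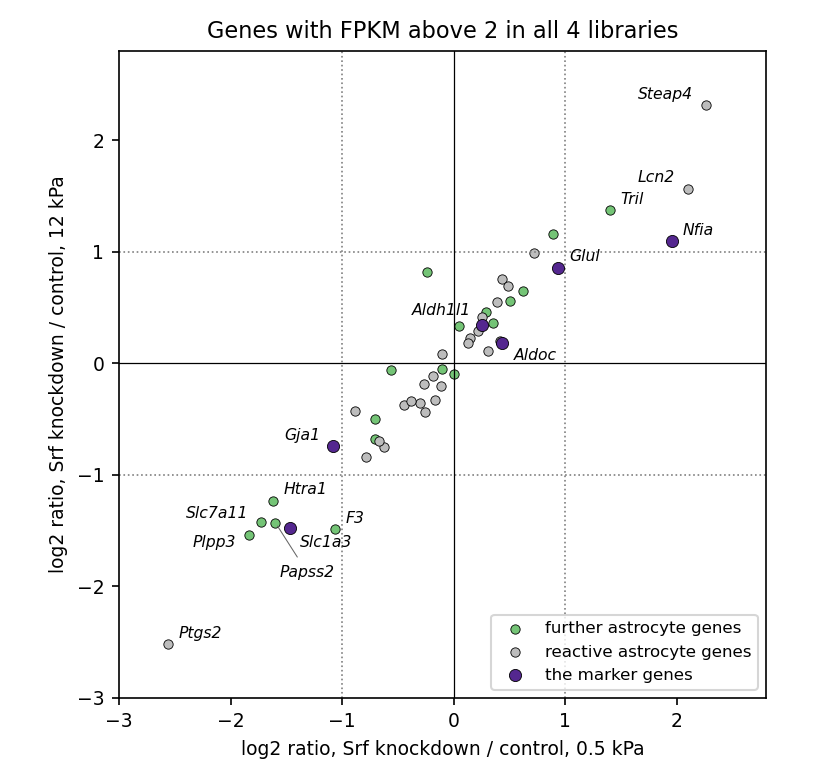
Log2 ratio of knockdown to control cells at 0.5 kPa (horizontal) and 12 kPa (vertical) for the 6 marker genes (purple), 18 further astrocyte genes (green) and 26 reactive astrocyte genes (grey) with an FPKM above 2 in all 4 libraries. Dotted lines mark 2-fold, and genes past it at both stiffnesses and the marker genes are named. Slc1a3 lies at lower left among 5 further astrocyte genes, and Nfia at upper right near Tril, Lcn2 and Steap4.

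Markers of other cells moved with the same libraries, and their part in the values above was not tested. The 14 radial glia and NPC markers had a summed FPKM of 151 to 182 in control and 85.1 to 90.7 in knockdown cells. Tnc (92.4, 74.7, 24.0 and 26.4), Nes and Prom1 (8.96, 7.58, 2.1 and 1.88) were lower with the knockdown. Sox2 (4.29, 5.49, 19.1 and 20.4), also one of the reprogramming transgenes of these cells, and Msi1 (1.29, 0.860, 3.91 and 3.74) were higher. The 14 neuron markers summed to 69.6 to 71.2 in control and 129 to 132 in knockdown cells, most of it Stmn2 (19.1, 18.7, 64.6 and 61.3) and Map2 (29.9, 35.1, 51.7 and 50), with Rbfox3 and Elavl4 listed at 0.

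The 12 fibroblast markers summed to 3455 to 3682 in control and 3430 to 3515 in knockdown cells. The 10 astrocyte genes summed to 442 to 489 in control and 307 to 323 in knockdown cells. Gja1 alone made up 61.0 to 81.2% of these sums, with 397 and 334 in control and 187 and 199 in knockdown cells. Besides Gja1, only Slc1a3 was lower among the 6 genes above the minimum, and Nfia, Glul, Aldoc and Aldh1l1 were higher. The sum therefore follows Gja1 rather than the marker genes as a set. Of the fibroblast markers, Col3a1 (1730.4, 1584, 1897 and 1908) and Fn1 (631, 508, 570 and 575) had the highest mean FPKM. Postn (188, 259, 30.2 and 36.8) was lower with the knockdown, and Dcn (9.22, 8.62, 26.9 and 26.2) and Lum (1.36, 1.22, 3.28 and 3.38) were higher. Fibroblasts also express Gja1 and Vim, so these are not specific to glia here.

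Other glia and brain cells left few defining reads. Of 12 oligodendrocyte lineage genes 3 passed the minimum, with a summed FPKM of 45.7 to 47.9 in control and 57.8 to 62.5 in knockdown cells, mostly Cnp (25.6, 28.8, 38.2 and 40.8) and Pdgfra (11.4, 12.1, 10.7 and 12.1), while Olig2 and Mobp were listed at 0. Of 10 microglia markers, summing to 17.9 to 19.4 in control and 41.0 to 46.0 in knockdown cells, only Tmem119 passed (17.7, 19.1, 41.0 and 45.7), with C1qa, C1qb and C1qc at 0 and Csf1r at 0.0544 to 0.157. Of 10 Schwann cell and crest markers, summing to 48.5 to 50.6 in control and 91.3 to 94.2 in knockdown cells, 1 passed, Pmp22 (40.3, 40.9, 85.8 and 87.1), with Egr2 (4.92, 3.92, 1.76 and 3.14) next and Foxd3 at 0. Of 8 endothelial markers, summing to 6.47 to 7.43 in control and 8.54 to 9.59 in knockdown cells, 1 passed, Flt1 (6.05, 4.99, 2.47 and 3.60), with Emcn at 0.806, 0.844, 5.29 and 4.92 and Tie1 at 0. No ependymal marker of 8 passed. Their sum was 2.15 to 2.63 in control and 1.83 to 2.17 in knockdown cells, led by Rsph1 (1.35, 1.08, 1.15 and 0.933) and Enkur (0.929, 0.789, 0.511 and 0.327), and Tmem212 was at 0.

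**Figure D4:**
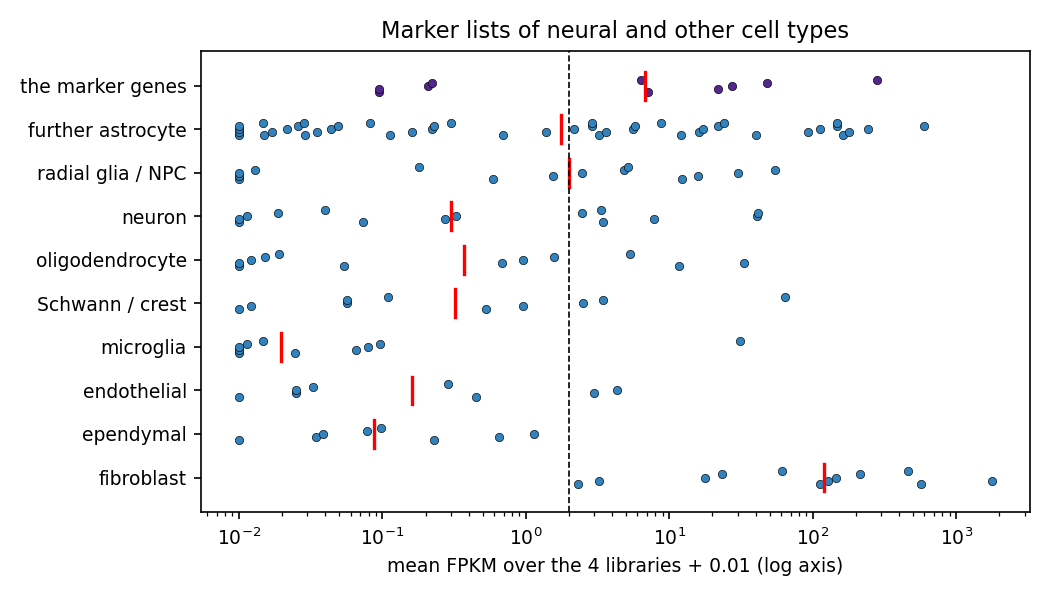
Mean FPKM over the 4 libraries (plus 0.01, log axis) of the genes in each marker list, 1 point for each gene, with the median of each list as a red line and the minimum of 2 as a dashed line. All 12 fibroblast markers lie right of the dashed line, while the astrocyte markers split into 6 above it and 4 below 0.5.

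Nfia had the widest range of log2 FPKM among the 6 genes above the minimum (1.96), followed by Slc1a3 (1.88). Compared over the 4 libraries, each profile centred on its own mean, the genes closest to Nfia of 10488 were Ifi27l2a (root mean square difference 0.161 in log2 FPKM), Dlx6 (0.161) and Rtp4 (0.163). Ifi27l2a and Rtp4 are interferon-responsive genes and Dlx6 is a homeobox gene of the developing forebrain. None of the 10488 came within 0.1. With 4 points this likeness is a description of these libraries.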

How the data were processed

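RNA was sequenced as 1 single-end, stranded mRNA library for each of 4 conditions. The authors trimmed reads with cutadapt 1.9.1, mapped them with TopHat2 2.1.0 and Bowtie2 2.2.8 to mm10 with GENCODE annotation, kept reads of mapping quality 20 or more and computed FPKM with Cufflinks 2.2.1. The deposited FPKM values were used as the authors gave them, without rescaling. The methods of the paper write RPKM for it.

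Of 21997 rows, 135 with 63 repeated symbols were left out. Ratios are log2 of FPKM without a pseudocount, with the study's minimum (FPKM above 2 in all 4 libraries) and threshold of 1.1-fold. Upstream windows were searched over 250 bases, and CCAAT was added after matches had been seen. Depth came from whole-read steps below an FPKM of 0.1 (44.7% of 1395 genes on a step within 2%) and 274 single-transcript genes, with transcript lengths of GENCODE M1 less 200 nucleotides. Intervals are exact 95% Poisson intervals for a value and exact binomial ones for a ratio. FPKM of isoform mixtures is an estimate, so reads of genes with several transcripts are approximate.

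The marker genes and all lists were chosen with earlier results of these data known. Every marker gene was named. From each other list, up to 4 genes past 2-fold at both stiffnesses with an FPKM above 2 in at least 2 libraries were named, otherwise the highest, and from lists of other cell types also the 2 highest and markers at 0, and 2 genes that this rule selects are not reported here. Htra1, F3 and Tril, Slc1a1, Slc1a6 and Slc1a7, S100pbp, Sox9, Notch1, Pax6 and Nfib fall outside this rule and were chosen after their values were seen. The same holds for the astrocyte genes Gjb6, Mlc1, Slc6a11 and Slco1c1, which were listed at 0. Calculations were tested on simulated data. The simulation used the same transcript lengths as the depth estimate and 2-fold changes in well expressed genes. It therefore did not test errors of length, isoform mixtures or ratios of genes with few reads. The tools were matplotlib 3.10.9, scipy 1.17.1, pandas 2.3.3, numpy 2.4.6 and Python 3.11.15.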

Additional observations from a re-analysis of the deposited data

Results flagged for a closer look

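Gfap had ratios of knockdown to control cells of opposite sign on the 2 matrices. The log2 ratio was -1.21 at 0.5 kPa and 0.84 at 12 kPa, a gap of 2.06 that was not tested, since each condition had 1 library. The control library at 12 kPa holds an estimated 3.02 reads of Gfap, and the counting interval of the ratio at 12 kPa, -0.99 to 3.29, includes 0.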

How the results depend on the processing

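No paired analysis was possible because the conditions held 1 library apiece, and for that reason no library could be left out. Of 101 summary values under the alternatives, 79 moved little and 22 moved. Of 164 values of single marker genes, 148 moved little and 16 moved. In each set 0 were labelled reversed, but counts and estimated reads could not be. Medians and single genes could be only where the main ratio was past 1.1-fold. The ratio of Nfia between 12 and 0.5 kPa in knockdown cells changed sign without that label, from -0.02 to 0.02 with GC centring. Of the values of single marker genes 1 crossed 1.1-fold, Aldoc at 12 kPa (0.10 with GC centring). The knockdown ratios of Nfia and Gja1 crossed 2-fold. Nfia at 12 kPa went from 1.09 to 0.943 with a pseudocount of 1, so it no longer passed 2-fold at both stiffnesses, and to 1.24 with GC centring. Gja1 at 0.5 kPa went from -1.085 to -0.999 with GC centring. At 12 kPa, where Gja1 was within 2-fold, it went from -0.742 to -0.546, which is within 1.5-fold. The threshold moved counts most. At 1.5-fold, 0 genes were lower and 1 higher at 12 kPa in control cells (0.963% and 0.858% of all genes), 0 and 0 in knockdown cells (0.324% and 0.458%), and with the knockdown 2 were lower and 2 higher at each stiffness (9.28% and 9.19% at 0.5 kPa, 8.88% and 10.2% at 12 kPa). At 2-fold, 0 and 0 were lower and higher with stiffness in control (0.105% and 0.124%) and in knockdown cells (0.0286% and 0.0572%), and with the knockdown 2 were lower and 1 higher at 0.5 kPa (2.86% and 2.45%) and 1 and 1 at 12 kPa (2.22% and 2.74%). Without a minimum and with a pseudocount of 1, over all 10 genes, 2 were lower and 6 higher at 12 kPa in control cells. With the knockdown at 12 kPa, 4 were lower and 4 higher. Shares of all genes were not computed at this setting. The median knockdown ratio of the 10 genes was then 0.0679 at 0.5 kPa and 0.0226 at 12 kPa. That median was 0.25 and 0.18 with a minimum of 5, and 0.23 and 0.15 with GC centring. The fewest estimated reads of a gene above the minimum were 195 with median in place of longest transcript lengths (657). Minimum 1, median centring and upper-quartile scaling moved no summary value by more than counting error or, for counts, 1.5 times. Depth limits Gfap, S100b, Aqp4 and Slc1a2, where a few reads set each ratio.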
